A study of Mus musculus with 11 samples.

Results

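DNA replication genes encode the proteins that license replication origins, copy the DNA at the fork and supply its nucleotides. The 36 genes described here were chosen by name for these roles, with earlier results of these data known. They are 36 of the 26283 genes in the deposited tables, and 34 of the 36 passed the filter on low counts. Before S phase, the origin recognition complex, Cdc6 and Cdt1 load the MCM2–7 helicase onto DNA, a step called licensing that geminin blocks once S phase has begun. Cdc45 and the GINS complex then activate the helicase, DNA polymerases alpha, delta and epsilon copy the strands, PCNA clamps the polymerases to DNA, and ribonucleotide reductase makes the deoxynucleotides. Many of these genes are transcribed at the G1/S transition under E2F factors, and in tumor tissue their RNA is commonly used as a measure of how many cells are cycling.

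The study sequenced bulk RNA of 11 mammary tumors, collected from C57BL/6 mice at 18 weeks of age, 6 of the genotype PyMT *Pcbp1*–/– and 5 of the genotype PyMT *Pcbp1*+/+. Both groups carried the MMTV-PyMT oncogene (polyomavirus middle T antigen) and MMTV-Cre, and they differed in the *Pcbp1* alleles, which were (fl/fl) in PyMT *Pcbp1*–/– mice and (wt/wt) in PyMT *Pcbp1*+/+ mice. Tumors arise in the females of this model. The paper describes the MMTV-Cre system as removing *Pcbp1* selectively from mammary epithelial cells, and which cells of these tumors keep it was not tested. The comparison asks how these genes differ in RNA level between tumors with and without epithelial *Pcbp1*. Nothing in the labels says that the tumors came from separate animals, so p-values measure the spread between these samples.

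The deposited counts summed to between 10543189 and 14092192 per tumor. In PyMT *Pcbp1*–/– tumors the total averaged 12831222 ± 1127639 (SD, n = 6), and in the other group it averaged 11014923 ± 324004 (SD, n = 5). By an exact permutation test (two-sided, p = 0.0173) this difference exceeded the variation within the groups. The part of this depth difference in the results was not tested. A count of 3, the limit that a count of 0 allows, corresponded to between 0.213 and 0.285 CPM, where CPM is a gene's counts divided by the sum of its tumor and scaled to a sum of 1000000. These limits cover counting error only. Values are deposited CPM, and fold changes and p-values come from edgeR's quasi-likelihood test with Benjamini-Hochberg adjustment over all 19232 genes that passed the filter.

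*Pcbp1* (ENSMUSG00000051695.6), which lies on the minus strand of chromosome 6 from 86524492 to 86526321 (GRCm38), was measured first to check the labels. It ranged from 15.4 CPM through a median of 20.9 to 33.6 CPM in PyMT *Pcbp1*–/– tumors and stood at 268, 271, 225, 219.5 and 259 CPM in PyMT *Pcbp1*+/+ tumors 1 to 5. Every PyMT *Pcbp1*–/– tumor lay far below every PyMT *Pcbp1*+/+ tumor, as labelled. The log2 fold change was -3.43 (SE 0.19, edgeR adjusted p = 4.72e-06). The labelled tissue was checked with 14 luminal epithelial markers, all of which passed the filter and none of which was at 0 in any tumor.

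Replication genes were mostly higher in PyMT *Pcbp1*–/– tumors, by less than 2-fold. The log2 fold change was above 0 for 32 of the 34 tested members, against 50.0% of all genes tested. Its median over the 34 members was 0.37, with a range from -0.10 to 0.69, while the median over all genes tested was -0.00012. At an unadjusted edgeR p under 0.05, 12 of the 34 members (35.3%) were higher, against 8.19% of all genes, and 0 were lower, against 10.5%. At an edgeR adjusted p under 0.05, 1 member, *Mcm6*, was higher, against 0.608% of all genes, and 0 were lower, against 1.66%, and 0 members were lower at either threshold with DESeq2 and the limma tests too. The CPM of 4 members, *Mcm6*, *Rrm2*, *Dut* and *Ccne2*, did not overlap between the groups and was higher in PyMT *Pcbp1*–/– tumors, against 1.27% of all genes, and 0 members were lower without overlap, against 2.02%. These counts and medians describe the members and carry no test of their own.

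The count of 1 member past the adjusted threshold depended on single tumors and on the test. It was 0 without PyMT *Pcbp1*–/– tumor 3 or tumor 4, 2 without PyMT *Pcbp1*–/– tumor 1, 2 or 6 or PyMT *Pcbp1*+/+ tumor 5, and 5 without PyMT *Pcbp1*+/+ tumor 2. Over all genes the share higher at an adjusted p lay between 0.211% and 0.959% with 1 tumor left out, and it was also highest without PyMT *Pcbp1*+/+ tumor 2. DESeq2 gave 9 members, against 2.31% of all genes with an adjusted p, and limma-voom with sample quality weights gave 12, against 5.03% of all genes, so that both tests called more genes overall than edgeR did. The count of members above 0 stayed between 30 and 34 in the 21 alternatives run.

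**Figure D1:**
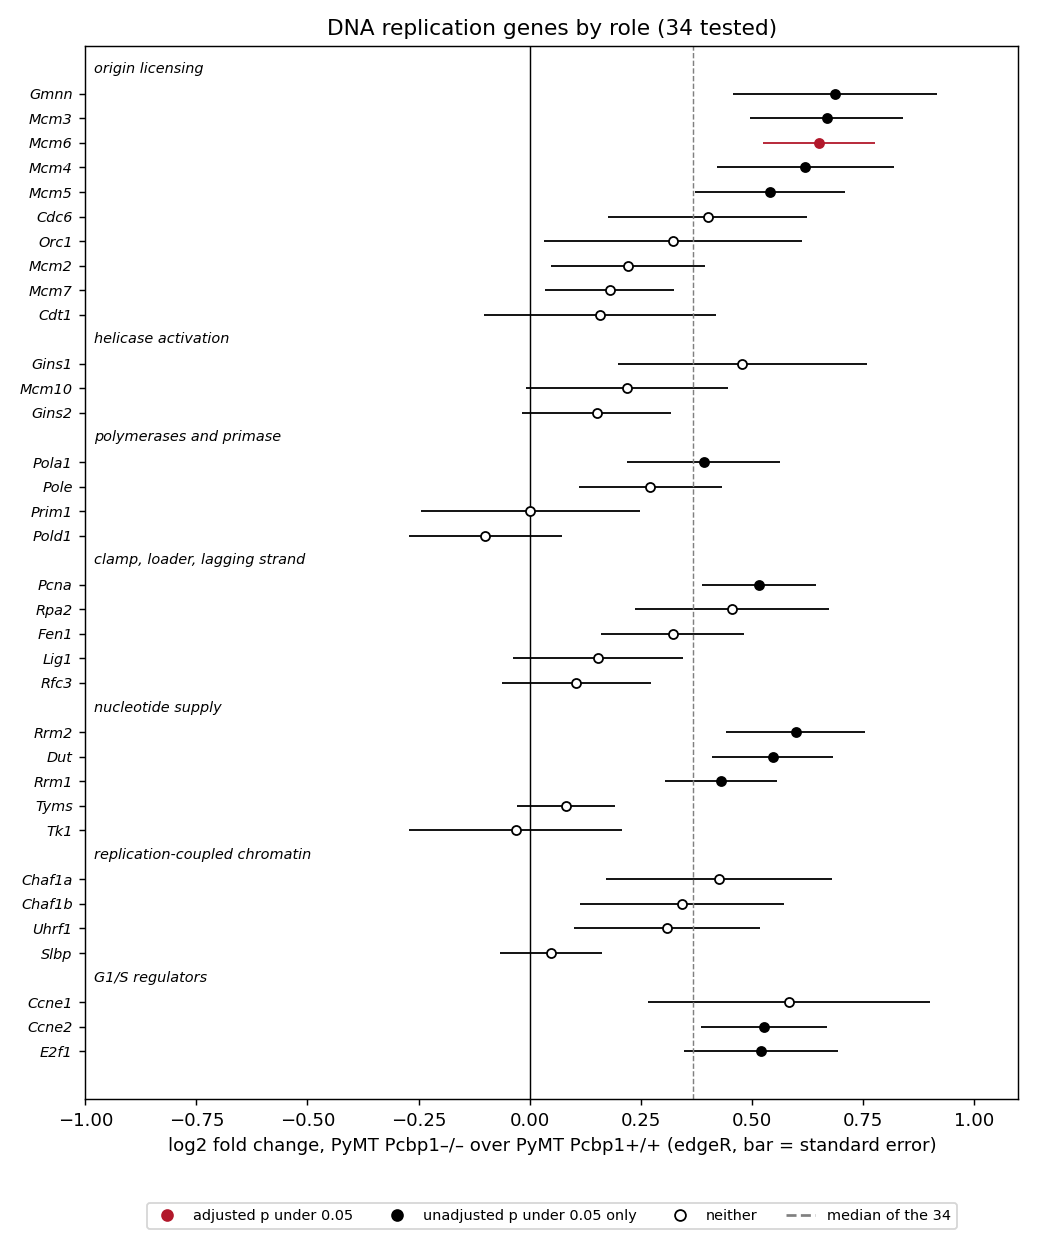
Log2 fold change of PyMT *Pcbp1*–/– over PyMT *Pcbp1*+/+ tumors on the horizontal axis for the 34 tested replication genes, listed by role on the vertical axis, with bars for the standard error from edgeR. *Mcm6*, in red, passed an adjusted p under 0.05, 11 others (filled black) passed only an unadjusted p under 0.05, and the dashed line marks the median of 0.37.

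The 10 licensing genes all had a log2 fold change above 0, with a median of 0.47, and 5 of them were higher at an unadjusted p under 0.05. For this and each other role, the shares over all genes were 50.0% above 0 and 8.19% higher at that p. *Mcm6* (ENSMUSG00000026355.11), on the minus strand of chromosome 1 from 128331590 to 128359664, encodes a subunit of the replicative helicase. Its CPM ranged from 25.2 through a median of 30.0 to 33.1 in PyMT *Pcbp1*–/– tumors and was 14.7, 19.8, 19.8, 22.8 and 17.4 in PyMT *Pcbp1*+/+ tumors 1 to 5. The groups did not overlap, and tumor 1 was the lowest of each. *Mcm6* rose by a log2 fold change of 0.65 (SE 0.13, edgeR adjusted p = 0.0220), higher in 6 of 6 PyMT *Pcbp1*–/– tumors than in any PyMT *Pcbp1*+/+ tumor. Its adjusted p was 0.0566 without PyMT *Pcbp1*–/– tumor 3 and 0.0527 without tumor 4, with log2 fold changes of 0.64 and 0.63.

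The helicase subunits *Mcm3*, *Mcm4* and *Mcm5* had differences of similar size that missed the adjusted threshold. *Mcm3* ranged from 12.1 through 16.6 to 21.3 CPM in PyMT *Pcbp1*–/– tumors and was 9.04, 14.3, 9.55, 9.84 and 10.7 CPM in PyMT *Pcbp1*+/+ tumors 1 to 5. The groups overlapped through PyMT *Pcbp1*–/– tumor 6, which lay below PyMT *Pcbp1*+/+ tumor 2. The log2 fold change of *Mcm3* was 0.67 (SE 0.17, edgeR adjusted p = 0.0656). *Mcm4* ranged from 19.9 through 26.5 to 34.4 CPM in PyMT *Pcbp1*–/– tumors, against 12.9, 19.4, 17.3, 15.4 and 22.1 CPM in PyMT *Pcbp1*+/+ tumors 1 to 5. PyMT *Pcbp1*–/– tumors 4 and 5 were high, and tumors 1 and 6 fell below PyMT *Pcbp1*+/+ tumor 5. For *Mcm4* the log2 fold change was 0.62 (SE 0.20, edgeR adjusted p = 0.122). *Mcm5* had 12.7, 17.1 and 19.6 CPM as its lowest, median and highest value in PyMT *Pcbp1*–/– tumors and 8.50, 15.3, 11.2, 10.9 and 11.8 CPM in PyMT *Pcbp1*+/+ tumors 1 to 5. Only PyMT *Pcbp1*–/– tumor 1 fell below PyMT *Pcbp1*+/+ tumor 2, and the log2 fold change was 0.54 (SE 0.17, edgeR adjusted p = 0.115).

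The remaining helicase subunits *Mcm2* and *Mcm7* had log2 fold changes of 0.22 and 0.18, with edgeR unadjusted p of 0.225 and 0.240. *Mcm7* was highest of all tumors in PyMT *Pcbp1*+/+ tumor 2, at 31.4 CPM. Per kilobase of the canonical transcript, the mean level over the 11 tumors was 8.36 CPM for *Mcm6*, 8.00 for *Mcm7*, 6.49 for *Mcm2*, 4.40 for *Mcm4*, 3.14 for *Mcm5* and 2.61 for *Mcm3*. On this scale the 6 subunits of the ring differed by over 3-fold. The scale depends on the transcript length used, 5.43 kb for *Mcm3* and 2.97 kb for *Mcm6*. It also depends on the alignment and on a counting method that is not given. Unequal RNA of the subunits is therefore not read from it.

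*Gmnn* encodes geminin, the inhibitor of Cdt1, and had the highest fold change of the 34 tested members in the main edgeR test. It ranged from 2.17 through 2.61 to 3.48 CPM in PyMT *Pcbp1*–/– tumors and was 1.46, 2.56, 1.58, 1.28 and 1.61 CPM in PyMT *Pcbp1*+/+ tumors 1 to 5. PyMT *Pcbp1*+/+ tumor 2 stood above the other 4 of its group and above PyMT *Pcbp1*–/– tumors 2 and 6. The log2 fold change of *Gmnn* was 0.69 (SE 0.23, edgeR adjusted p = 0.138), from 14 to 49 counts per tumor. This rank did not hold in every alternative. Without PyMT *Pcbp1*+/+ tumor 4 *Gmnn* had 0.59 and *Mcm6* 0.71, and with limma on log2(CPM + 1) they had 0.48 and 0.64. The licensing factors *Cdt1*, *Cdc6* and *Orc1*, the last a subunit of the origin recognition complex, had log2 fold changes of 0.16, 0.40 and 0.32, and none of the 3 passed an unadjusted p under 0.05 in edgeR.

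The ratio of *Cdt1* to *Gmnn* within a tumor does not depend on the scaling between tumors. On the log2 scale it ranged from 1.58 through 2.06 to 2.14 in PyMT *Pcbp1*–/– tumors and was 2.07, 2.50, 2.35, 2.62 and 2.97 in PyMT *Pcbp1*+/+ tumors 1 to 5. The groups overlapped at PyMT *Pcbp1*+/+ tumor 1, and PyMT *Pcbp1*–/– tumor 1 was the lowest. The mean was 1.99 ± 0.21 (SD, n = 6) in PyMT *Pcbp1*–/– and 2.50 ± 0.33 (SD, n = 5) in PyMT *Pcbp1*+/+ tumors. This difference of -0.52 passed the test (two-sided exact permutation p = 0.00866, adjusted over 4 ratios 0.0346). It was not past the threshold with 1 CPM added to each gene, where it was -0.30 (exact permutation, adjusted p = 0.416), nor with 10 of the 11 tumors left out singly, where it lay between -0.55 and -0.40 and the adjusted p between 0.0762 and 0.127. Without PyMT *Pcbp1*+/+ tumor 1 it was -0.63 (exact permutation, adjusted p = 0.0190). The other 3 ratios, between the subunits of ribonucleotide reductase (*Rrm2* over *Rrm1*), the E-type cyclins (*Ccne1* over *Ccne2*) and the subunits of chromatin assembly factor 1 (*Chaf1b* over *Chaf1a*), differed by 0.18, -0.05 and -0.10, with exact permutation p adjusted to 0.554, 0.885 and 0.646.

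Helicase activation was represented by 4 genes, of which 3 were tested and 0 passed an unadjusted p under 0.05. *Gins1* and *Gins2*, subunits of the GINS complex, had log2 fold changes of 0.48 and 0.15, and *Mcm10*, which helps to start the fork, had 0.22. *Cdc45* had between 1 and 11 counts in a tumor and did not pass the filter. *Rfc4*, a subunit of the clamp loader, did not pass it either, with estimated counts between 1.24 and 13.3. Their CPM values ranged from 0.0854 to 0.804 and from 0.0931 to 0.945. Fitted in edgeR without the filter, *Cdc45* had a log2 fold change of -0.09 (SE 0.51, adjusted p = 0.952) and *Rfc4* one of 0.71 (SE 0.55, adjusted p = 0.561).

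The 4 genes for polymerases and primase had a median log2 fold change of 0.14. *Pola1*, the catalytic subunit of polymerase alpha, ranged from 5.70 through 7.90 to 9.79 CPM in PyMT *Pcbp1*–/– tumors and was 5.12, 7.02, 4.99, 7.93 and 5.63 CPM in PyMT *Pcbp1*+/+ tumors 1 to 5. PyMT *Pcbp1*–/– tumors 3, 4 and 5 lay above all PyMT *Pcbp1*+/+ tumors and the rest overlapped, with a log2 fold change of 0.39 (SE 0.17, edgeR adjusted p = 0.246). *Pole*, the catalytic subunit of polymerase epsilon, had a log2 fold change of 0.27 (SE 0.16, edgeR adjusted p = 0.390). *Pold1* and *Prim1* were among the 3 of the 34 tested members with the lowest fold changes. *Pold1*, the catalytic subunit of polymerase delta, ranged from 2.90 through 3.21 to 3.79 CPM in PyMT *Pcbp1*–/– tumors, against 4.84, 4.17, 2.37, 3.28 and 3.13 CPM in PyMT *Pcbp1*+/+ tumors 1 to 5. All PyMT *Pcbp1*–/– tumors lay inside the range of the other group, and the log2 fold change was -0.10 (SE 0.17, edgeR adjusted p = 0.792). *Prim1*, the primase that starts each new strand, ranged from 2.14 through 4.08 to 6.22 CPM in PyMT *Pcbp1*–/– tumors, against 3.75, 5.88, 3.15, 4.74 and 3.57 CPM in PyMT *Pcbp1*+/+ tumors 1 to 5. All PyMT *Pcbp1*+/+ tumors lay inside the range of the other group, and the log2 fold change was 0.0016 (SE 0.25, edgeR adjusted p = 0.999).

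Of the 6 genes for the clamp, its loader, single-strand binding and the lagging strand, 5 were tested, 5 had a log2 fold change above 0 and 1, *Pcna*, passed an unadjusted p under 0.05. *Pcna* encodes the sliding clamp and ranged from 41.9 through 52.4 to 58.4 CPM in PyMT *Pcbp1*–/– tumors, against 29.1, 44.4, 37.8, 37.1 and 32.0 CPM in PyMT *Pcbp1*+/+ tumors 1 to 5. The groups overlapped only where PyMT *Pcbp1*–/– tumor 1 fell below PyMT *Pcbp1*+/+ tumor 2. Its log2 fold change was 0.52 (SE 0.13, edgeR adjusted p = 0.0584). *Pcna* is uncertain where the counting could split reads, because *Pcna-ps2*, a pseudogene on chromosome 19 from 9283238 to 9284494, had between 51.3 and 73.1 CPM in PyMT *Pcbp1*–/– and between 40.8 and 54.2 CPM in PyMT *Pcbp1*+/+ tumors. The pseudogene had a log2 fold change of 0.47 (SE 0.12, edgeR adjusted p = 0.0684). The other tested genes of this role were *Rpa2*, a subunit of the single-strand binding protein, the flap endonuclease *Fen1*, DNA ligase 1 (*Lig1*) and the clamp loader subunit *Rfc3*. Their log2 fold changes were 0.46, 0.32, 0.15 and 0.10, with edgeR unadjusted p of 0.0581, 0.0677, 0.435 and 0.544.

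Nucleotide supply held 3 of the 12 members past an unadjusted p under 0.05 and also 1 of the 2 tested members below 0. *Rrm2*, the regulated subunit of ribonucleotide reductase, ranged from 30.7 through 33.8 to 40.9 CPM in PyMT *Pcbp1*–/– tumors, against 16.4, 20.6, 26.4, 22.6 and 26.6 CPM in PyMT *Pcbp1*+/+ tumors 1 to 5. The groups did not overlap, and the log2 fold change was 0.60 (SE 0.16, edgeR adjusted p = 0.0677). *Rrm2* is uncertain in the same way as *Pcna*, since its pseudogene *Rrm2-ps1* had between 3.83 and 5.26 CPM in PyMT *Pcbp1*–/– and between 2.28 and 3.50 CPM in PyMT *Pcbp1*+/+ tumors. The large subunit, *Rrm1*, ranged from 32.5 through 36.9 to 42.3 CPM in PyMT *Pcbp1*–/– tumors, against 21.4, 35.0, 27.2, 29.6 and 25.4 CPM in PyMT *Pcbp1*+/+ tumors 1 to 5. PyMT *Pcbp1*+/+ tumor 2 exceeded PyMT *Pcbp1*–/– tumor 1, and the log2 fold change was 0.43 (SE 0.13, edgeR adjusted p = 0.0969).

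*Dut*, the dUTPase that keeps uracil out of DNA, ranged from 9.35 through 11.2 to 12.6 CPM in PyMT *Pcbp1*–/– tumors, against 8.59, 7.97, 6.40, 6.65 and 8.39 CPM in PyMT *Pcbp1*+/+ tumors 1 to 5. The groups did not overlap, and the log2 fold change was 0.55 (SE 0.14, edgeR adjusted p = 0.0581). Thymidine kinase 1 (*Tk1*), a salvage enzyme, ranged from 41.9 through 47.3 to 82.3 CPM in PyMT *Pcbp1*–/– tumors, against 39.9, 93.3, 43.4, 48.1 and 42.2 CPM in PyMT *Pcbp1*+/+ tumors 1 to 5. Tumor 2 of each group stood far above the others, and the rest lay close together. The log2 fold change of *Tk1* was -0.03 (SE 0.24, edgeR adjusted p = 0.959), and it was -0.19 without PyMT *Pcbp1*–/– tumor 2 and 0.26 without PyMT *Pcbp1*+/+ tumor 2. Thymidylate synthase (*Tyms*) had a log2 fold change of 0.08 (SE 0.11, edgeR adjusted p = 0.729).

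The 4 genes of replication-coupled chromatin had log2 fold changes above 0, and 0 passed an unadjusted p under 0.05. *Chaf1a* and *Chaf1b*, which encode histone chaperone subunits, had 0.43 and 0.34, and *Uhrf1*, which guides maintenance of DNA methylation, had 0.31. *Slbp*, which binds the stem-loop of histone messages, had 0.05.

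Among the G1/S regulators, *E2f1* and *Ccne2* passed an unadjusted p under 0.05. *E2f1*, a transcription factor for S phase genes, ranged from 8.87 through 11.0 to 12.01 CPM in PyMT *Pcbp1*–/– tumors, against 6.85, 11.3, 7.18, 5.56 and 6.34 CPM in PyMT *Pcbp1*+/+ tumors 1 to 5. PyMT *Pcbp1*+/+ tumor 2 lay within the range of the other group and the other 4 below it, with a log2 fold change of 0.52 (SE 0.17, edgeR adjusted p = 0.135). *Ccne2*, an E-type cyclin that activates Cdk2, ranged from 7.03 through 8.06 to 8.85 CPM in PyMT *Pcbp1*–/– tumors, against 6.49, 5.46, 3.99, 5.23 and 6.69 CPM in PyMT *Pcbp1*+/+ tumors 1 to 5. The groups did not overlap, and the log2 fold change was 0.53 (SE 0.14, edgeR adjusted p = 0.0740). Its paralog *Ccne1* had a log2 fold change of 0.58 (SE 0.32, edgeR adjusted p = 0.346) and ranged from 1.16 to 4.96 CPM in PyMT *Pcbp1*–/– tumors.

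**Figure D2:**
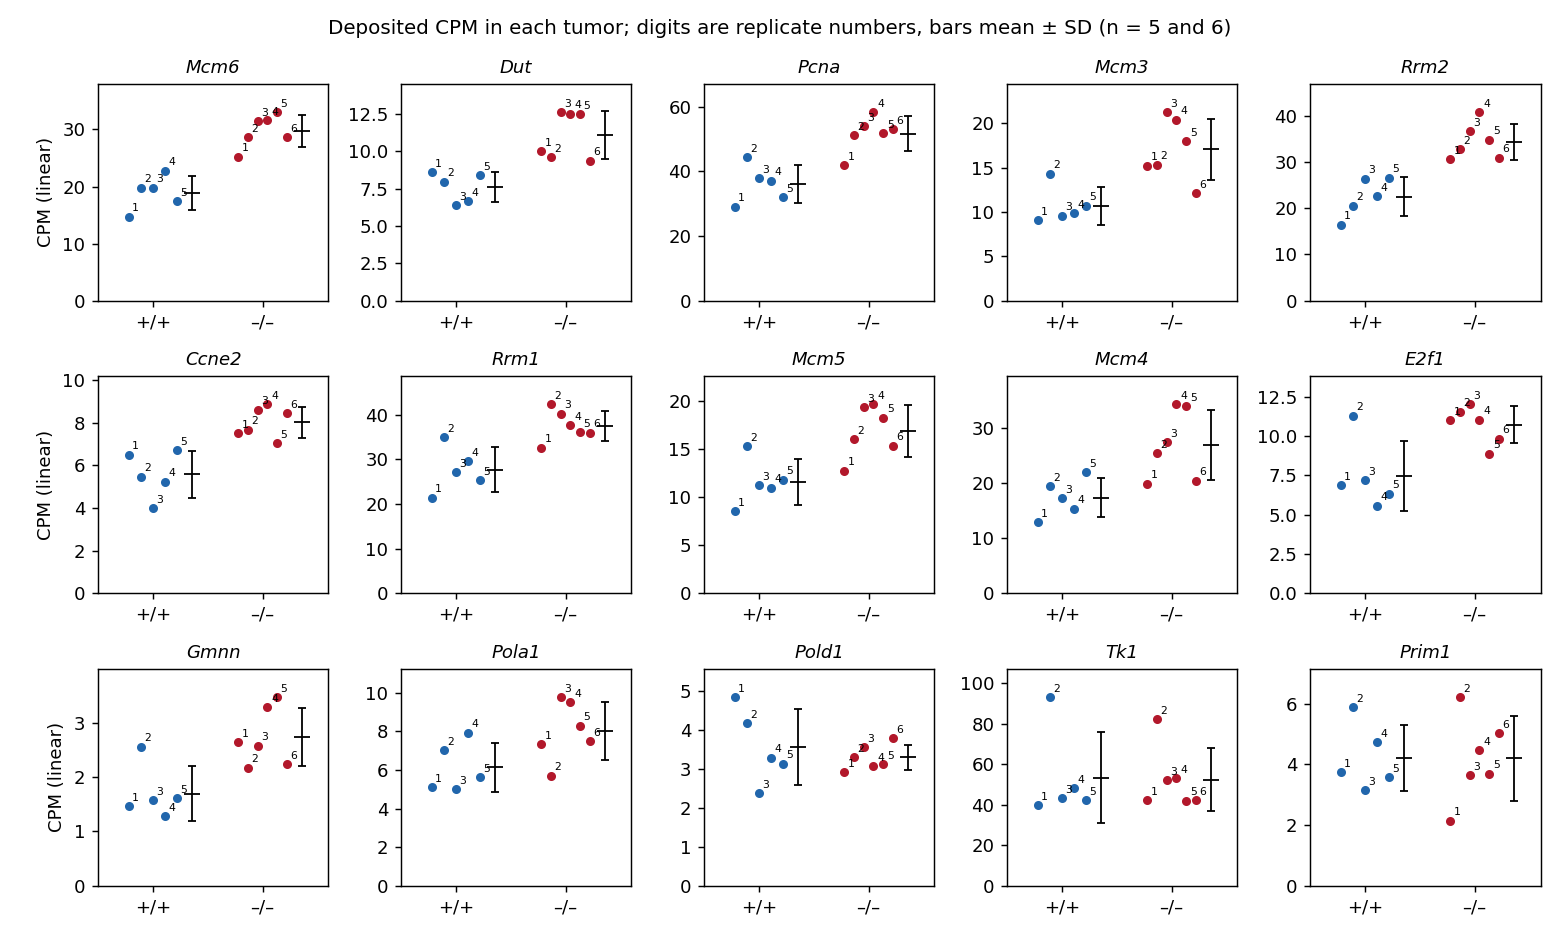
Deposited CPM, on linear axes from 0, of the 12 tested members with the smallest p and the 3 with the lowest fold change, in each tumor of PyMT *Pcbp1*+/+ (blue, n = 5) and PyMT *Pcbp1*–/– (red, n = 6), with replicate numbers beside the points and mean ± SD in black. *Mcm6*, *Dut*, *Rrm2* and *Ccne2* do not overlap between the groups, and *Tk1* shows 1 high tumor in each group, at 82.3 and 93.3 CPM.

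Single tumors stood high or low for many members at once. Relative to the mean of PyMT *Pcbp1*+/+ tumors, the median log2 level of the 34 members was 0.06, 0.25, 0.54, 0.63, 0.53 and 0.26 in PyMT *Pcbp1*–/– tumors 1 to 6. In PyMT *Pcbp1*+/+ tumors 1 to 5 it was -0.45, 0.31, 0.05, -0.12 and 0.12. The groups therefore overlapped in this median, since PyMT *Pcbp1*+/+ tumor 2 lay above PyMT *Pcbp1*–/– tumors 1, 2 and 6. PyMT *Pcbp1*+/+ tumor 1 was the lowest of the 11 tumors for 21 of the 34 members, and tumor 2 was the highest of its group for 21. For 19 members PyMT *Pcbp1*–/– tumor 1 was the lowest of its group, and tumor 4 was the highest of all 11 tumors for 12. The median log2 fold change of the members was 0.27 without PyMT *Pcbp1*+/+ tumor 1 and 0.45 without PyMT *Pcbp1*+/+ tumor 2.

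**Figure D3:**
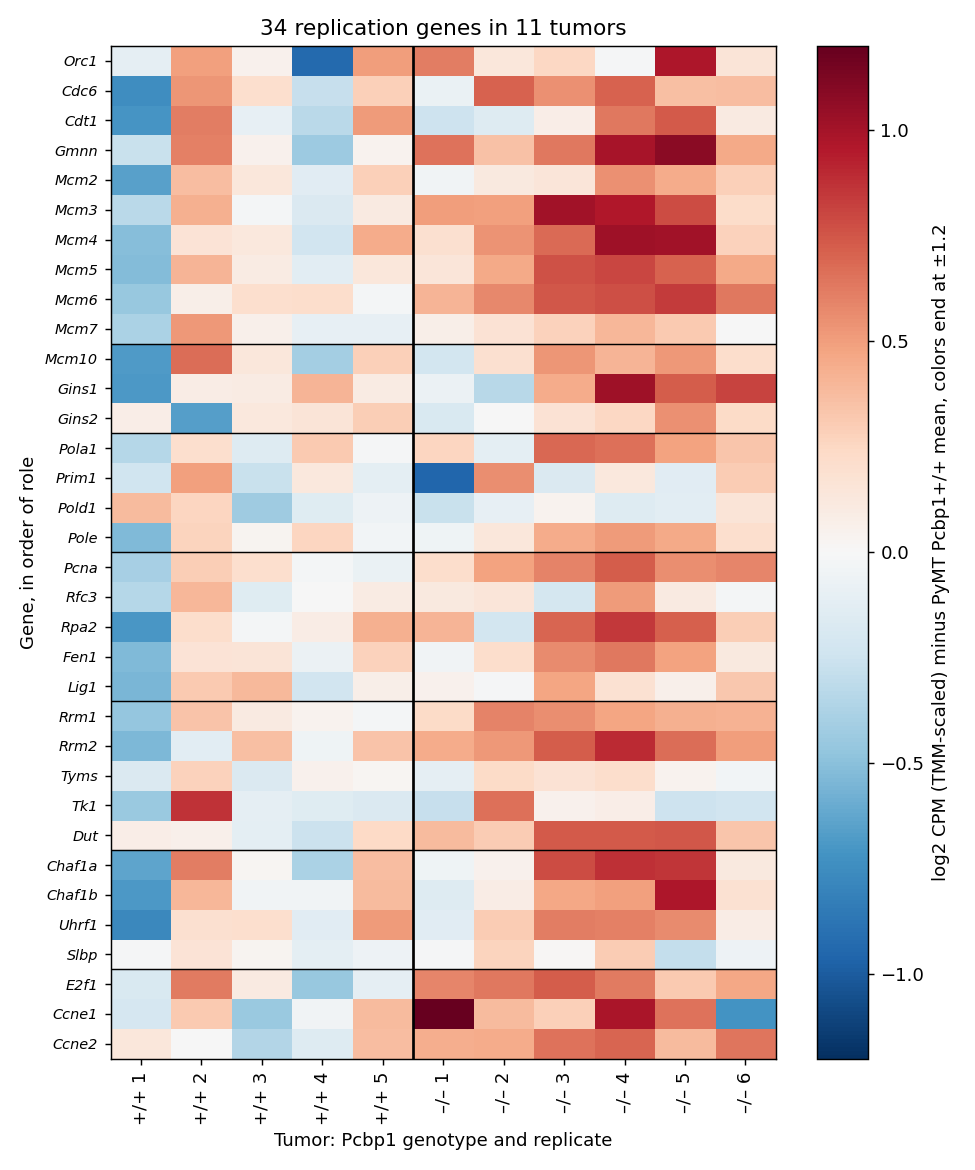
Log2 level of the 34 tested members (rows, in order of role, with lines between roles) in the 11 tumors (columns, PyMT *Pcbp1*+/+ left and PyMT *Pcbp1*–/– right of the thick line), as the difference from the PyMT *Pcbp1*+/+ mean, with colors that end at ±1.2. PyMT *Pcbp1*+/+ tumor 1 is low in most rows (median -0.45) and PyMT *Pcbp1*–/– tumor 4 is high in most (median 0.63).

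Genes of mitosis, 34 of them in a separate list, all had a log2 fold change above 0, with a median of 0.40. Of these, 18 (52.9%) passed an unadjusted p under 0.05 in edgeR, all higher, against 8.19% of all genes. At an adjusted p under 0.05, 0 passed in edgeR, against 0.608% of all genes, and 0 in limma on log2(CPM + 1), against 0.478%. The edgeR count was 3 without PyMT *Pcbp1*–/– tumor 1, against 0.510% of all genes, 3 without PyMT *Pcbp1*+/+ tumor 2, against 0.959%, and 0 without any other single tumor. It was 2 with protein-coding genes only, against 0.737% of all genes tested there. With upper-quartile factors it was 1, against 0.582%, and with the filter at 1 CPM in 5 tumors it was 1, against 0.649%. DESeq2 gave 8, against 2.31%, and limma-voom with sample quality weights gave 17, against 5.03%. Their median relative log2 level was 0.06, 0.46, 0.47, 0.54, 0.60 and 0.42 in PyMT *Pcbp1*–/– tumors 1 to 6 and -0.48, 0.44, -0.04, 0.03 and 0.13 in PyMT *Pcbp1*+/+ tumors 1 to 5. The lowest tumor of each group was thus tumor 1 for both gene lists.

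Markers of cell types varied between the same tumors, and in bulk RNA fewer cells of a type and less RNA per cell cannot be told apart. For each marker list, the share over all genes with a log2 fold change above 0 was 50.0%. At an unadjusted edgeR p under 0.05, 8.19% of all genes were higher and 10.5% lower. Of 14 luminal markers, 5 had a log2 fold change above 0, with a median of -0.04. Their summed CPM was 1792, 2483, 2941, 2967, 3495 and 2678 in PyMT *Pcbp1*–/– tumors 1 to 6 and 2923, 2515, 2406, 2891 and 2994 in PyMT *Pcbp1*+/+ tumors 1 to 5. PyMT *Pcbp1*–/– tumor 1, the lowest of its group in the replication genes, was also the lowest in these markers, whose most abundant gene was *Ehf* at 550.1 CPM. Of 9 basal epithelial markers, 4 were above 0, among them *Krt5* (0.51) and *Trp63* (0.26), and *Krt14* was lower, with a log2 fold change of -2.42 (SE 0.86, edgeR unadjusted p = 0.0156). *Krt14* stood at 277 CPM in PyMT *Pcbp1*+/+ tumor 2 and between 4.64 and 47.6 CPM in the other 4 tumors of that group, against 3.82 to 21.9 CPM in PyMT *Pcbp1*–/– tumors. Without PyMT *Pcbp1*+/+ tumor 2 its log2 fold change was -0.60 (edgeR unadjusted p = 0.296). The basal sum was 591, 173, 458, 581, 469.6 and 664 CPM in PyMT *Pcbp1*–/– tumors 1 to 6 and 1246, 421, 422, 455 and 146 CPM in PyMT *Pcbp1*+/+ tumors 1 to 5, with *Mylk* the most abundant. PyMT *Pcbp1*+/+ tumor 1, the lowest tumor in the replication genes, was the highest in basal markers. Other extremes did not go together. PyMT *Pcbp1*–/– tumors 1 and 4, lowest and highest of that group in the replication genes, had close basal sums of 591 and 581 CPM. The luminal sum was 2923 CPM in PyMT *Pcbp1*+/+ tumor 1 and 2515 CPM in tumor 2, the highest of that group in the replication genes.

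Of 8 fibroblast markers, 7 were above 0, and *Fbln1* was higher at an unadjusted p of 0.00976. Their sum was 693, 724, 646, 646, 409.5 and 1011 CPM in PyMT *Pcbp1*–/– tumors 1 to 6 and 408, 542, 712, 758 and 421 CPM in PyMT *Pcbp1*+/+ tumors 1 to 5, with *Col1a1* the most abundant. All 8 macrophage markers were above 0, and *Cd163* was higher at an unadjusted p of 0.0428, which lay between 0.0143 and 0.0937 with 1 tumor left out. Their sum was 370.2, 268, 249, 179.8, 197 and 275 CPM in PyMT *Pcbp1*–/– tumors 1 to 6 and 250.4, 176, 293, 234 and 130.3 CPM in PyMT *Pcbp1*+/+ tumors 1 to 5, with *C1qb* the most abundant. PyMT *Pcbp1*–/– tumor 4, the highest in the replication genes, was the lowest of its group in macrophage markers. At an unadjusted edgeR p under 0.05, 1 of 8 fibroblast and 1 of 8 macrophage markers were higher (12.5% each), against 8.19% of all genes. Of 9 basal markers 1 was lower, against 10.5%. Counts this near the shares over all genes are not read as results about these cell types.

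None of the 7 endothelial and 5 adipocyte markers was above 0, with medians of -0.15 and -0.80. The endothelial sum was 107, 86.2, 56.0, 63.4, 57.1 and 60.7 CPM in PyMT *Pcbp1*–/– tumors 1 to 6 and 72.5, 96.0, 83.6, 96.8 and 59.5 CPM in PyMT *Pcbp1*+/+ tumors 1 to 5, with *Cdh5* the most abundant. The adipocyte sum ranged from 1.14 to 27.9 CPM in PyMT *Pcbp1*–/– and from 3.22 to 57.3 CPM in PyMT *Pcbp1*+/+ tumors, with *Fabp4* the most abundant and *Adipoq* and *Cidec* at 0 in some tumors. Markers of lymphocytes and muscle were scarce. Of 8 T cell markers 4 were tested and 1 was above 0, the sum ranged from 3.45 to 10.1 CPM, *Cd8a* was the most abundant, and *Cd3d* and *Cd8b1* were at 0 in some tumors. Of 4 B cell markers only *Cd79b* was measured, with between 0.0890 and 0.773 CPM, and it did not pass the filter. Of 4 skeletal muscle markers 1 was tested, *Acta1*, and *Ckm*, *Myh4* and *Tnnt3* were at 0 in some tumors, while the sum ranged from 0.474 to 26.2 CPM. No marker of any list passed an adjusted p under 0.05 in edgeR, DESeq2 or the limma tests. The part of these cell markers, and of the single tumors named, in the replication gene differences was not tested.

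Other genes of the same pathways, 93 in 5 lists, had a median log2 fold change of 0.17, against 0.37 for the members, and a wider range, from -0.47 to 0.74. This difference between the lists was not tested. All 93 were tested for genotype, and 70 had a log2 fold change above 0. At an unadjusted edgeR p under 0.05, 14 (15.1%) were higher, against 8.19% of all genes, and 1 was lower, against 10.5%. At an edgeR adjusted p under 0.05, 1 was higher, against 0.608%, and 0 were lower, against 1.66%. The count higher was 4 without PyMT *Pcbp1*+/+ tumor 2, against 0.959% of all genes, and 0 without any other single tumor. DESeq2 gave 2 higher, against 2.31% of all genes, and 0 lower, against 3.40%. With limma-voom and sample quality weights 14 were higher, against 5.03%, and 2 were lower, against 6.19%. The count of 14 at an unadjusted edgeR p was 8 without PyMT *Pcbp1*–/– tumor 4, against 6.99% of all genes, and 28 without PyMT *Pcbp1*+/+ tumor 2, against 9.91%. The count of 1 lower lay between 1 and 5 with 1 tumor left out, where the share over all genes is not given. By list, the counts higher at an unadjusted p under 0.05 were 4 of 18 for origin licensing and firing, 2 of 26 for polymerases, clamp loaders and the fork, 1 of 13 for nucleotide supply, 2 of 8 for chromatin and 5 of 28 for G1/S control. The lists for the fork and for nucleotide supply, both at 7.69%, were near the 8.19% of all genes.

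*Dck*, deoxycytidine kinase of the salvage pathway, was the gene past the adjusted threshold. It ranged from 24.7 through 27.4 to 36.5 CPM in PyMT *Pcbp1*–/– tumors, against 17.1, 22.5, 21.1, 20.05 and 18.7 CPM in PyMT *Pcbp1*+/+ tumors 1 to 5. The groups did not overlap, and *Dck* rose by a log2 fold change of 0.51 (SE 0.12, edgeR adjusted p = 0.0481). With 1 tumor left out, the log2 fold change of *Dck* lay between 0.44 and 0.57, and its adjusted p was 0.0448 without PyMT *Pcbp1*+/+ tumor 2 and between 0.0561 and 0.114 without any other tumor. *Samhd1*, which breaks down deoxynucleotides, went the other way. It ranged from 49.7 through 68.2 to 93.5 CPM in PyMT *Pcbp1*–/– tumors, against 94.8, 101, 117, 101 and 73.8 CPM in PyMT *Pcbp1*+/+ tumors 1 to 5. PyMT *Pcbp1*–/– tumors 3 to 6 lay below all PyMT *Pcbp1*+/+ tumors, with a log2 fold change of -0.47 (SE 0.15, edgeR adjusted p = 0.131). *Cdc7*, the kinase that fires licensed origins, ranged from 10.3 through 10.9 to 14.8 CPM in PyMT *Pcbp1*–/– tumors, against 8.86, 8.73, 8.32, 8.47 and 10.0 CPM in PyMT *Pcbp1*+/+ tumors 1 to 5. The groups did not overlap, and the log2 fold change was 0.38 (SE 0.13, edgeR adjusted p = 0.135). *Tipin*, a fork protection factor, had a log2 fold change of 0.37 (SE 0.12, edgeR adjusted p = 0.120).

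In G1/S control, *Ccnd1*, the D-type cyclin that partners Cdk4 and Cdk6, ranged from 357 through 481 to 647 CPM in PyMT *Pcbp1*–/– tumors, against 304, 543, 276, 343 and 208 CPM in PyMT *Pcbp1*+/+ tumors 1 to 5. PyMT *Pcbp1*–/– tumors 1 and 2 exceeded every PyMT *Pcbp1*+/+ tumor, and the log2 fold change was 0.60 (SE 0.21, edgeR adjusted p = 0.155). *Ccna2*, the S phase cyclin, ranged from 36.7 through 52.7 to 63.5 CPM in PyMT *Pcbp1*–/– tumors, against 24.2, 41.2, 32.8, 38.4 and 39.9 CPM in PyMT *Pcbp1*+/+ tumors 1 to 5. Only PyMT *Pcbp1*–/– tumor 1 fell inside the range of the other group, and the log2 fold change was 0.54 (SE 0.17, edgeR adjusted p = 0.113). The D-type cyclins *Ccnd2* and *Ccnd3* had log2 fold changes of 0.61 and 0.0017, the former with an SE of 0.62. The kinases *Cdk4*, *Cdk6* and *Cdk2* had 0.24, -0.36 and 0.07, and none of these 3 passed an unadjusted p under 0.05 in edgeR.

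Among the other E2F genes, *E2f8*, a repressor, had a log2 fold change of 0.46, with an edgeR unadjusted p of 0.0373 and an edgeR adjusted p of 0.236. *E2f7*, *E2f6* and *E2f3* had 0.17, 0.19 and 0.14, and *E2f2*, *E2f4* and *E2f5* had -0.08, -0.01 and -0.06, none of these past an unadjusted p under 0.05 in edgeR. Of the pocket proteins that bind E2F, *Rbl1* had 0.29 (edgeR unadjusted p = 0.0456), *Rbl2* had -0.14 and *Rb1* had -0.47 (edgeR unadjusted p = 0.0630). *Rb1* was 239.6 CPM in PyMT *Pcbp1*+/+ tumor 1 and between 87.7 and 124 CPM in the other 4 tumors of that group, against 51.6 to 114 CPM in PyMT *Pcbp1*–/– tumors. Of the CDK inhibitors, *Cdkn1a* had 0.64, *Cdkn2a* 0.74, *Cdkn2c* 0.50 and *Cdkn1b* -0.06, and none passed an unadjusted p under 0.05 in edgeR. Both *Cdkn1a* and *Cdkn2a* were highest in PyMT *Pcbp1*–/– tumor 1, *Cdkn1a* at 148 CPM and *Cdkn2a*, at 15.04 CPM.

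Several members share their annotated position with other genes, which limits what their counts mean. Of the 36 members, 15 overlap another annotated gene and 13 overlap one on the opposite strand, and whether the counting used strand is not given in the sources used here. Without strand, reads from bases that a gene shares with its antisense partner cannot be told apart. The overlaps are of annotated gene spans, and overlap of exons was not tested. *Rfc4* overlaps *Eif4a2*, which had a mean of 188 CPM, and *Cdc45* overlaps *Ufd1l*, with 24.3 CPM. *Mcm7* overlaps *Ap4m1* and *Cops6*, with 48.6 and 7.94 CPM, and *Gins2* overlaps *Gse1*, with 40.6 CPM, and *AC114005.5*, with 83.6 CPM. *Cdt1* lies on the same strand as *AC114005.5* and had 10.5 CPM. Among the members past an unadjusted p under 0.05, *Pola1*, with 7.17 CPM, overlaps an antisense processed pseudogene with 49.6 CPM, and *Ccne2*, with 6.91 CPM, overlaps *Ints8* on the opposite strand, with 14.3 CPM. *Rrm1*, with 33.0 CPM, overlaps a transcript on its own strand with 1.03 CPM. For 10 members, *Orc1*, *Lig1* and *Chaf1a* beside *Rfc4*, *Cdc45*, *Mcm7*, *Gins2*, *Cdt1*, *Pola1* and *Ccne2*, an overlapping gene had a higher mean CPM than the member. The values of these members are uncertain for this reason. Over the 36 members, the level per kilobase went with the mean exon length (Spearman rho 0.44), a description across genes of the same 11 libraries, which are not independent replicates. Over the 34 tested members, the level per kilobase and the log2 fold change had a Spearman rho of -0.05.

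Promoters are shown because many of these genes are known targets of E2F factors. RefSeq promoters of GRCm38.p6, from 250 bases before to 50 bases after the start, matched 30 of the 36 members, with 35 promoters. *Ccne2*, *Gins1*, *Gins2*, *Gmnn*, *Mcm4* and *Pole* had no entry. The E2F-type words TTTCCCGC, TTTCGCGC, TTTGCCGC and TTTGGCGC, searched on both strands, occurred in 12 of the 35 member promoters (34.3%), in 744 of all 32851 promoters (2.26%) and in 1 of 31 promoters of the mitosis genes (3.23%). The word CCAAT, on both strands, occurred in 20 of the 35 member promoters (57.1%), in 37.4% of all promoters and in 77.4% of the mitosis promoters. A word is a match of letters and not a measured binding site. The promoters of *Dut*, *Pcna*, *Rrm2* and *Rrm1* held none of the E2F-type words in this window. Among members with an E2F-type word, those with the smallest p were *Mcm6* (minus strand, chr1:128359656-128359955), *Mcm3* (minus strand, chr1:20820263-20820562) and *Mcm5* (plus strand, chr8:75109259-75109558). They are printed 5′ to 3′ in the direction of the gene, with the words in capitals. The *Mcm6* promoter held 3 words, starting at positions -110, -106 and -47 from the start, the *Mcm3* promoter 2, at 20 and 39 bases into the gene, and the *Mcm5* promoter 2, at -153 and -149. The first pair in *Mcm6* and the pair in *Mcm5* overlap, so that each reads as 1 run of capitals.
Mcm6: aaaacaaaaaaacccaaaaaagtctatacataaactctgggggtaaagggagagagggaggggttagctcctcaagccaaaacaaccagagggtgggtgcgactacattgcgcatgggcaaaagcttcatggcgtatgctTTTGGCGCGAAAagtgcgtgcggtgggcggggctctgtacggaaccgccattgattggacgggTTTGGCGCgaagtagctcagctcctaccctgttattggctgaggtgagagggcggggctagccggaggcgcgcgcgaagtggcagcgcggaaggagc
Mcm3: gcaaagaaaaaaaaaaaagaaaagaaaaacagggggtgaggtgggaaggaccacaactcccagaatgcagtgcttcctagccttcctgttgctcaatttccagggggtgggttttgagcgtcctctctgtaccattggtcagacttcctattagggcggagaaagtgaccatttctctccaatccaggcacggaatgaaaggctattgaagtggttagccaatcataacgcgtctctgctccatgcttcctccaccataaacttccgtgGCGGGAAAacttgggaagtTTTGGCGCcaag
Mcm5: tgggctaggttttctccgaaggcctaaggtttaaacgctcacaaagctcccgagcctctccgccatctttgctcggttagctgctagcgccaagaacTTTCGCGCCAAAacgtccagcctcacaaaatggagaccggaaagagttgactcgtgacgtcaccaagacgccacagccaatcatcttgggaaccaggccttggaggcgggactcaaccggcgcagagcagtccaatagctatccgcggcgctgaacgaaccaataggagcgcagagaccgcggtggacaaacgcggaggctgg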

How the data were processed

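Poly(A)-enriched RNA from the 11 tumors was sequenced as paired-end reads by the authors on a NovaSeq instrument and aligned to GRCm38 with Bowtie2, with FastQC for read quality and Partek Flow for the differential analysis. The sample titles and library names name no batch. Their numbers run through all PyMT *Pcbp1*–/– tumors first and then all PyMT *Pcbp1*+/+ tumors. Any effect of that order cannot be told apart from genotype. Per the labels and the values, the authors deposited estimated counts per gene, of which between 17.9% and 19.7% per tumor were not whole (tolerance 1e-09). They also deposited CPM, each estimated count as a share of its tumor's sum, scaled to 1000000. The annotation and the counting method are not given in the sources used here. Bowtie2 does not split a read across an intron, so that levels of genes with short exons or intronless copies can depend on the alignment.

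After rounding, the counts went into the quasi-likelihood test of edgeR 4.0.16 (R 4.3.3), with TMM scaling, filterByExpr as the filter on low counts, genotype as the only term and Benjamini-Hochberg adjustment. Partek's Gene Specific Analysis was not used here. Ratios were tested by two-sided exact permutation, whose smallest p is 0.00216. The standard error is the fold change divided by the root of F. The deposited stop lies 1 base past the gene's end and was reduced by 1. Canonical transcript lengths came from GENCODE vM39 (97.9% of identifiers matched) and promoters from RefSeq GRCm38.p6. Relative levels are log2 CPM scaled by TMM.

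Values in every tumor were given for the 12 tested members with the smallest p and the 3 with the lowest fold change. Of the 5 other pathway lists, those with an adjusted p under 0.05 or, where fewer than 6, the 6 with the smallest p were named, beside E2F, Rb, cyclin, CDK and CDK inhibitor genes by role. *Tyms*, *Uhrf1* and the other members were accounted for by role. The members and lists were chosen with earlier results of these data known. As alternatives, the test was changed to DESeq2 1.42.0, to limma 3.58.1 on log2 CPM with 1 or 0.1 added, and to limma-voom with sample weights. The scaling was changed to library size alone, upper quartiles or protein-coding genes, and the filter was dropped or set to 1 CPM in 5 tumors. The replicate number was added as a block, and each tumor was left out. The block fit also left out PyMT *Pcbp1*–/– tumor 6, so its changes cannot be assigned to the block alone. The fits were tested on simulated data.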

Additional observations from a re-analysis of the deposited data

Results flagged for a closer look

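Single tumors stood far from the rest of their group in 7 of the 86 groups of values looked at. Chance would give about 4.3 if the groups were independent. They come from the same 11 tumors, so no excess over chance is read from this. PyMT *Pcbp1*+/+ tumor 2 was the highest of its group for *Gmnn* (2.56 CPM, next 1.61), *Mcm7* (31.4 CPM, next 21.2), *E2f1* (11.3 CPM, next 7.18) and *Tk1* (93.3 CPM, next 48.1). PyMT *Pcbp1*–/– tumor 2 was the highest of its group for *Tk1* (82.3 CPM, next 53.0). PyMT *Pcbp1*+/+ tumor 5 was the lowest of its group for *Cdc45*, with 0.179 CPM against 0.547 CPM in the next, which are 2 and 6 counts. PyMT *Pcbp1*–/– tumor 1 had the lowest log2 ratio of *Cdt1* to *Gmnn* of its group, 1.58 against 1.94 in the next.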

How the results depend on the processing

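Over 21 alternatives, *Pcbp1* kept its call (log2 fold change -3.60 to -3.34), and 0 members were lower at an unadjusted or adjusted p under 0.05. Between 11 and 22 members were higher at an unadjusted p, and the median log2 fold change of the members lay between 0.27 and 0.50. The main count of 12 stood against 8.19% of all genes, and the count of 11 without PyMT *Pcbp1*–/– tumor 4 against 6.99%. The count of 22, with limma-voom, went with 2884 of all genes higher, against 1576 in the main edgeR test. No change in the members alone is read from it. The count of members higher at an adjusted p, 1, was 9 with DESeq2, 3 with library size only, 12 with limma-voom with sample quality weights, 3 with limma on log2(CPM + 1), 3 on log2(CPM + 0.1) and 0 to 5 with 1 tumor left out. Over all genes that share, 0.608%, was 2.31% with DESeq2, 0.463% with library size only, 5.03% with limma-voom, 0.478% with each limma test on log2 CPM and 0.211% to 0.959% with 1 tumor left out. With limma-voom, 22 members and 38 other pathway genes were higher at an unadjusted p, against 2884 of all 19232 genes. The other pathway genes higher at an unadjusted p, 14, were 8 to 28 with 1 tumor left out. Those lower, 1, were 2 with upper-quartile factors, 2 with protein-coding genes only, 4 with limma-voom, 5 with the replicate block and 1 to 5 with 1 tumor left out. Over all genes the share lower was 10.5% in the main edgeR test. It is not given for the alternatives, so no change in this list is read from these counts. *Prim1* changed sign with library size only (-0.0029), upper-quartile factors (-0.0016), limma on log2(CPM + 1) (-0.028) and log2(CPM + 0.1) (-0.043) and the block (-0.11), and lay between -0.13 and 0.15 with 1 tumor left out. *Tk1* changed sign with limma-voom (0.13), limma on log2(CPM + 1) (0.0069) and log2(CPM + 0.1) (0.0074) and the block (0.050), and lay between -0.19 and 0.26 with 1 tumor left out. *Pold1* changed sign with limma-voom (0.030) and lay between -0.19 and 0.0075 with 1 tumor left out. *Dck* lost its call in 13 of 21 alternatives. The difference between the groups in the log2 ratio of *Cdt1* to *Gmnn* was -0.30 with 1 CPM added and between -0.63 and -0.40 with 1 tumor left out, and the difference in that of *Ccne1* to *Ccne2* lay between -0.24 and 0.21. The median of all genes moved by under 0.01 in each alternative, and the cause of these changes was not tested. Whether tumors with the same replicate number are paired was not tested. Their correlations were 0.12, 0.10, -0.06, -0.13 and 0.27, and 2 of 5 PyMT *Pcbp1*–/– tumors correlated best with their own number. With the number as a block, 1 member was higher at an adjusted p (*Mcm6*, log2 fold change 0.66), against 0.221% of all genes. DESeq2 gave no adjusted p for 2 members. Low counts kept *Cdc45* and *Rfc4* out of the edgeR test with its filter, and overlapping genes, pseudogenes and cell makeup limit what single members show.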
